A study of Mus musculus with 9 samples.

Results

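The nuclear-encoded subunits of oxidative phosphorylation were followed in conventional type 2 dendritic cells (cDC2s). Gene symbols of the count files were taken as members by name alone: those beginning with Ndufa, Ndufb, Ndufc, Ndufs or Ndufv and a number, with Uqcr, with Cox and a number from 4 to 8, or with Atp5, and the genes Sdha to Sdhd. Symbols marked as pseudogenes, assembly factors named Ndufaf and Cox6a2 were left out. Of 89 matching symbols among 40879 in the files, 83 held at least 30 counts over the 9 libraries and are the members. They comprise 38 genes of complex I, 4 of complex II, 8 of complex III, 16 of complex IV (Ndufa4, Ndufa4l2 and Cox7a2l counted there) and 17 of ATP synthase, also called complex V. Of the 6 symbols below the minimum, Cox7b2, Cox8c, Ndufa11b and Ndufb11b held no count in any library, and Cox4i2 and Ndufb4c held 12 counts each. The files use older symbols for ATP synthase, such as Atp5a1, Atp5k and Atp5g1 to Atp5g3, and are quoted with them.

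The cells came from mouse bone marrow and were sorted by flow cytometry after growth for 9 days with 100 ng/ml recombinant human Flt3L, a cytokine that drives dendritic cell growth. Libraries of 3 groups were compared: WT, WT given interferon alpha (IFNa) from day 5, and A20iKO, here written A20 KO. The genotype label of the last group is A20fl/fl x CD11ccre, a floxed allele of A20 (Tnfaip3, a brake on NF-kB signalling) cut by a Cre recombinase under the CD11c promoter, which is active in dendritic cells and some other myeloid cells. There were 3 libraries in each group, from 3 mice per group according to the series' design text. Whether 1 library is 1 mouse was not stated, so p-values measure the spread between these libraries. One protocol field names IFNa for all 9 libraries, whereas titles and the treatment entry name it only for the IFNa group, and grouping followed the titles. Levels are CPM, the usual depth-scaled counts, on library totals scaled by TMM (a method that sets aside the most changed genes), given as mean ± SD of 3 libraries. Reads mark the 3' ends of transcripts, so a level does not scale with transcript length.

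Oxidative phosphorylation is carried out in the inner mitochondrial membrane. Complexes I and II pass electrons from NADH and succinate to ubiquinone, complex III passes them to cytochrome c, complex IV passes them to oxygen, and ATP synthase uses the proton gradient built by complexes I, III and IV. Most subunits are encoded in the nucleus and a few in mitochondrial DNA. In dendritic cells and macrophages, inflammatory signals are known to change the balance between this pathway and glycolysis.

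Library totals ran from 6900598 to 10552756 counts, and the members held 62162 to 111397 counts per library. Tnfaip3 held 42 to 232 counts in WT, 73 to 84 under IFNa and 285 to 476 in A20 KO, and a 3' tag that may lie outside the deleted part checks nothing about the deletion. Several features of whole libraries moved with the groups. The noncoding gene Gm26917 took 5.21 to 11.4% of counts in WT, 12.2 to 17.3% under IFNa and 12.3 to 13.8% in A20 KO. The 9 cDC2 markers summed to 13780 to 17793 CPM in WT, 9863 to 11946 under IFNa and 7036 to 8186 in A20 KO. Cd209a, one of them, stood at 331, 114 and 11 CPM on average in that order. Not all 9 fell: by edgeR, 7 were lower and 1 higher in A20 KO than WT, where 4.91% and 5.77% of all genes were. With IFNa 3 were lower, where 0.702% of all genes were, and 2 lay above 0. The 8 monocyte and macrophage markers summed to 313 to 358, 1137 to 1229 and 1887 to 2017 CPM, with Mertk lowest at 0.442, 3.15 and 22.3 CPM on average. Adgre1 went the other way, at 92.5, 38.4 and 37.1 CPM on average, and was called lower in both comparisons with WT. The 20 proliferation genes summed to 1384 to 1596, 2017 to 2420 and 2747 to 3411 CPM. By edgeR, 14 of these 20 rose in A20 KO over WT, where 5.77% of all genes tested did, and 4 rose with IFNa, where 2.4% did. Markers of T and NK cells summed to at most 5.79 CPM, those of B cells to at most 18.5, and those of red cells to 56.2 to 95.1 except 432 in A20 KO replicate 1. Of 7 neutrophil markers, 3 rose with IFNa (S100a8, S100a9 and Prtn3), and in A20 KO over WT Mpo and Prtn3 rose while S100a8 and S100a9 fell. S100a9 averaged 47.8, 157 and 4.85 CPM in WT, IFNa and A20 KO, and Prtn3 averaged 0.594, 7.21 and 174 CPM. Sums of cDC1 markers were 377 to 436, 197 to 229 and 51.9 to 83.2 CPM, and those of pDC markers 576 to 724, 781 to 923 and 739 to 967 CPM. Of the 5 pDC markers only Bst2 was called with IFNa (70.3 CPM on average in WT, 286 with IFNa), and 2 lay below 0. In A20 KO over WT 3 of the 5 rose and 1 fell. Stromal markers did not follow the groups: they summed to 3802, 4265 and 3930 CPM in 3 libraries (WT replicate 2, IFNa replicate 3, A20 KO replicate 1) and to 404 to 2112 elsewhere. The part of these features in the results below was not tested.

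The summed level of the members was lowest under IFNa and highest in A20 KO. It was 10398, 10487 and 11207 CPM in the WT libraries, 9256, 9610 and 9236 CPM under IFNa, and 11073, 12116 and 11736 CPM in A20 KO. All IFNa libraries lay below all others, and the A20 KO and WT ranges overlapped by 1 library each. As a share of the library's total counts the members took 1.11% ± 0.09 in WT, 0.889% ± 0.0631 under IFNa and 1.18% ± 0.0212 in A20 KO. With Gm26917 left out of the total these shares were 1.19%, 1.04% and 1.36%, so the gap between IFNa and WT narrowed and that between A20 KO and WT widened. These are bulk libraries, in which fewer cells of a type and less RNA per cell cannot be told apart.

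**Figure D1:**
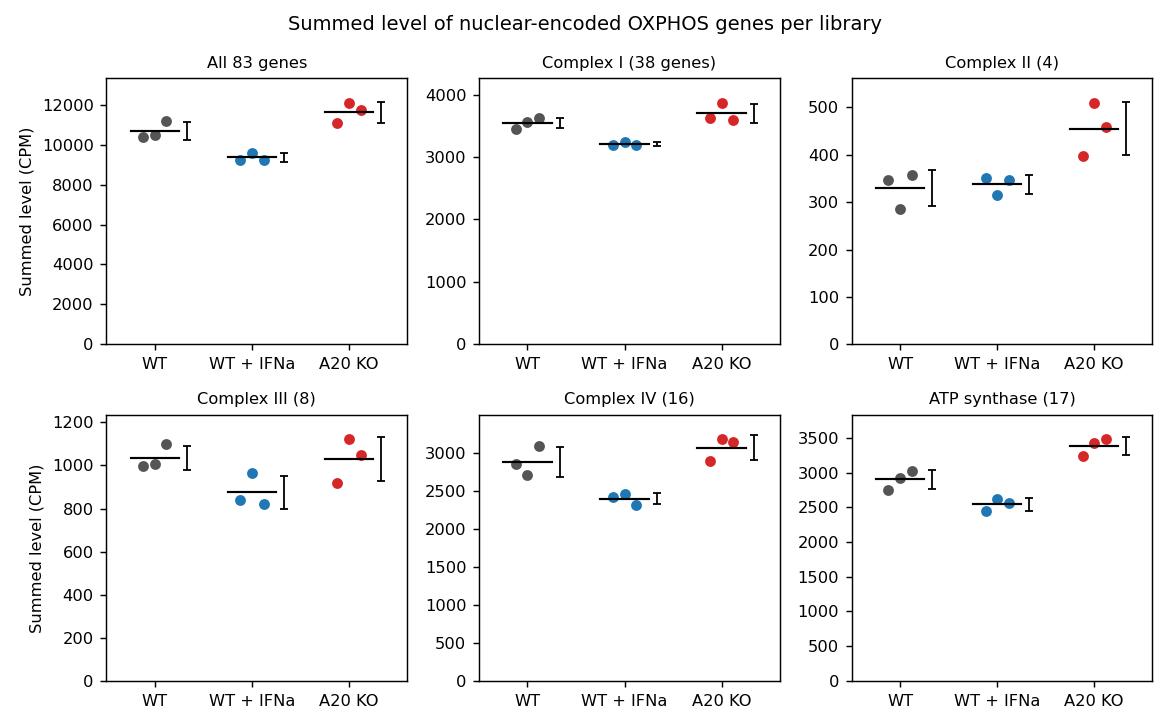
Summed CPM of all 83 members and of each complex in every library (points, replicates 1 to 3 from left to right), with the mean (line) and SD (bar) of 3 libraries on axes that start at 0. The IFNa points lie below all WT points in complexes I, III, IV and V, and the A20 KO points lie above all WT points in complex II and ATP synthase.

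The order of the groups differed between complexes. Complex I summed to 3546 ± 85.5 CPM in WT, 3212 ± 27.5 under IFNa and 3701 ± 149 in A20 KO. Complex II, the smallest, summed to 330.2 ± 38.6, 338 ± 19.9 and 455 ± 56.1 CPM. Complex III summed to 1034 ± 56.9, 875 ± 77.4 and 1031 ± 102 CPM. In complexes I and III the IFNa libraries were below all WT libraries, and A20 KO overlapped WT. In complex II it was A20 KO that stood apart, above every other library. Complex IV summed to 2884 ± 198 CPM in WT, 2399 ± 74.9 under IFNa and 3071 ± 160.0 in A20 KO. ATP synthase summed to 2903 ± 142, 2545 ± 90.4 and 3383 ± 129 CPM, and here the 3 groups did not overlap at all. Of the 83 members, 76 averaged 10 CPM or more in WT.

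The most counted members of each complex did not all follow its sum. In ATP synthase, Atp5g3, which encodes the membrane ring subunit c, averaged 535 ± 133 CPM in WT, 434 ± 72.5 under IFNa and 593 ± 98.6 in A20 KO, with overlap between WT and each other group. In complex IV, the small subunit gene Cox7c averaged 457 ± 87.6, 365 ± 35.4 and 433 ± 26.7 CPM, and Cox4i1, a regulatory subunit, 348 ± 25.9, 280.3 ± 38.2 and 347 ± 51.7 CPM. None of these 3 genes passed the test in any comparison. In complex III, the hinge protein gene Uqcrh averaged 322 ± 45.8, 278 ± 42.6 and 282 ± 19.3 CPM, and Uqcrq 138 ± 24.8, 106 ± 16.5 and 169.9 ± 42.1 CPM, also without passing. In complex I, the accessory subunit gene Ndufa2 differed little, at 223 ± 12.1, 215 ± 12.9 and 209 ± 18.4 CPM, and the most counted gene, Ndufa6, is described with A20 KO below. A few members held very few counts for genes of ubiquitous subunits: Ndufs5 averaged 4.39 CPM in WT, Atp5g2 2.91 and Atp5l 11. The levels of these 3 genes, and of the copies Ndufs6b and Ndufb4b, are uncertain, because it is unknown here how reads matching several near-identical genes or pseudogenes were counted. Ndufs5, an accessory subunit gene of complex I, held 76, 1 and 55 counts in WT, 0, 0 and 7 with IFNa and 46, 54 and 89 in A20 KO, and did not pass despite the most extreme fold changes of the set (log2 fold change 4.40 in A20 KO over IFNa, adjusted p = 0.146). Cox8b and Ndufa4l2 held too few counts to be tested.

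Of the core and catalytic subunits, Sdhb and Atp5a1 passed the test in a comparison and are described below. The others named here, picked after their values were seen, did not pass in any. In complex I, the core that carries the flavin and the iron-sulfur clusters includes Ndufs1, Ndufs3, Ndufs7, Ndufs8, Ndufv1 and Ndufv2. Ndufs8 averaged 83.6 ± 24.1 CPM in WT, 82.6 ± 3.85 under IFNa and 88.2 ± 17.7 in A20 KO. Ndufv1 was 88.7, 90.0 and 91.4 CPM in WT, 65.1, 70.5 and 81.0 under IFNa and 78.1, 91.1 and 92.1 in A20 KO, so that IFNa lay below WT and A20 KO overlapped both. In complex III, the core protein genes Uqcrc1 and Uqcrc2 averaged 105 ± 20.3 and 103 ± 30.3 CPM in WT, 82.0 ± 25.3 and 117 ± 25.6 under IFNa, and 98.7 ± 15.7 and 133 ± 21.4 in A20 KO, with overlap throughout. The Rieske iron-sulfur protein gene Uqcrfs1 averaged 105 ± 17.5, 89.5 ± 5.09 and 104 ± 12 CPM. In the catalytic head of ATP synthase, the beta subunit gene Atp5b stood at 236, 232 and 243 CPM in WT, 215, 234 and 243 under IFNa and 295, 315 and 309 in A20 KO. A20 KO lay above both other groups, but the differences did not pass (log2 fold change 0.37 over WT, adjusted p = 0.0968; 0.41 over IFNa, adjusted p = 0.0986). The gamma subunit gene Atp5c1 averaged 80.1 ± 15.6, 73.7 ± 14.8 and 93.6 ± 11.4 CPM, and the epsilon subunit gene Atp5e 318 ± 18.1, 297 ± 3.26 and 297 ± 24.9 CPM. In complex IV, the matrix-facing subunit genes Cox5a and Cox5b averaged 192 ± 11 and 173 ± 11.2 CPM in WT, and 257 ± 34.2 and 208 ± 16.6 in A20 KO, where both lay above all WT libraries without passing (0.42 and 0.26, adjusted p = 0.0992 and 0.414).

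The tests below are edgeR's quasi-likelihood test in 1 fit of all 9 libraries and 13251 genes, adjusted by Benjamini-Hochberg over all of them, with a threshold of 0.05. Of the 83 members, 81 were tested. The comparisons of IFNa and of A20 KO with WT share the WT libraries, and all 3 share the groups pairwise, so their results are not independent. Counts of members or listed genes at an unadjusted p, or by DESeq2 or limma voom, come without the share of all genes. They therefore do not show whether these genes differed from others.

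The first comparison asks what IFNa did to these transcripts in WT cultures. By edgeR, 3 members fell, Cox6b2, Atp5md and Cox7b, and none rose. That is 3.7% of members called lower, where 0.702% of all genes tested were called lower, and 0% called higher, where 2.4% of all genes were. At an unadjusted p under 0.05, 15 members were lower and 1 was higher (share of all genes not computed). DESeq2 called 4 lower and limma voom 2, and neither called any higher. Beyond these calls the members leaned downwards: 59 of 81 had a log2 fold change below 0, with a median of -0.20, where the median over all genes was -0.02. The WT and IFNa libraries did not overlap for 25 members that were lower (30.9%, against 8.45% of all genes) and 3 that were higher (3.7%, against 9.77%). The 3 higher ones were Sdhb, Ndufs7 and Ndufa12.

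Cox6b2 encodes the isoform of complex IV subunit 6b known mainly from testis. Its level was 11.2, 14.2 and 19.6 CPM in the WT libraries and 2.72, 2.78 and 2.23 CPM with IFNa. Every IFNa library lay below every WT library, and the fall was 5.78-fold (log2 fold change -2.53, SE 0.50, edgeR Benjamini-Hochberg adjusted p = 0.0125). The widespread isoform Cox6b1 did not pass: it averaged 256 ± 23.2 CPM in WT and 217 ± 13.7 with IFNa (log2 fold change -0.24, adjusted p = 0.53). As a share of the counts of both isoforms, Cox6b2 took 4.15, 5.76 and 6.58% in WT and 1.19, 1.23 and 1.1% with IFNa. The 95% exact (Clopper-Pearson) intervals of the IFNa libraries reached at most 1.83% and those of WT began at 3.44%. These intervals reflect counting error alone, as no source states that reads carried molecular identifiers. The call was lost without WT replicate 3 or IFNa replicate 3 (log2 fold changes -2.29 and -2.44), and with limma voom without or with sample quality weights (-2.46 and -2.57, adjusted p = 0.109 and 0.0725). It passed in 17 of 21 alternatives, with adjusted p from 0.000181 to 0.109.

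Atp5md encodes a small membrane subunit of ATP synthase, and Cox7b a small subunit of complex IV. Atp5md stood at 131, 101 and 115 CPM in WT and 55.7, 79.0 and 68.2 CPM with IFNa. The groups did not overlap, and the fall was 1.71-fold (log2 fold change -0.77, SE 0.18, edgeR adjusted p = 0.0353). Cox7b stood at 138, 139 and 158 CPM in WT and 93.4, 87.1 and 94.5 CPM with IFNa, again without overlap. Its fall was 1.58-fold (log2 fold change -0.66, SE 0.16, edgeR adjusted p = 0.0434). Both calls were near the threshold. That of Atp5md passed in 13 of 21 alternatives (adjusted p 0.00355 to 0.142) and was lost without replicate 1 or 3 of WT or IFNa or without A20 KO replicate 2 or 3, with log2 fold changes from -0.67 to -0.78, and in the fit of WT and IFNa alone (-0.78). That of Cox7b passed in 10 of 21 (adjusted p 0.00387 to 0.18) and was lost without any 1 of the WT and IFNa libraries or A20 KO replicate 2 or 3, with log2 fold changes from -0.60 to -0.70, and without a filter or in the fit of WT and IFNa alone (-0.66 and -0.67). The count of members called lower with IFNa was 0 without WT replicate 3 or IFNa replicate 3, and 1 without WT replicate 1, IFNa replicate 1 or A20 KO replicate 2 or 3.

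By complex, the medians with IFNa were lowest in complex IV, where 13 of 14 tested members were below 0 (median log2 fold change -0.29), and in complex III, with 7 of 8 (median -0.30). In ATP synthase 14 of 17 were below 0 (median -0.17). Complex I was more even, with 23 of 38 below 0 (median -0.15), and complex II was split 2 and 2 (median -0.00). Among members that did not pass, Cox7a2, the widespread isoform of subunit 7a, stood at 206, 238 and 206 CPM in WT and 155, 162 and 154 CPM with IFNa (log2 fold change -0.47, adjusted p = 0.11). Ndufb5 of complex I had 129 ± 9.45 and 84.5 ± 17.2 CPM (log2 fold change -0.61, adjusted p = 0.138).

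**Figure D2:**
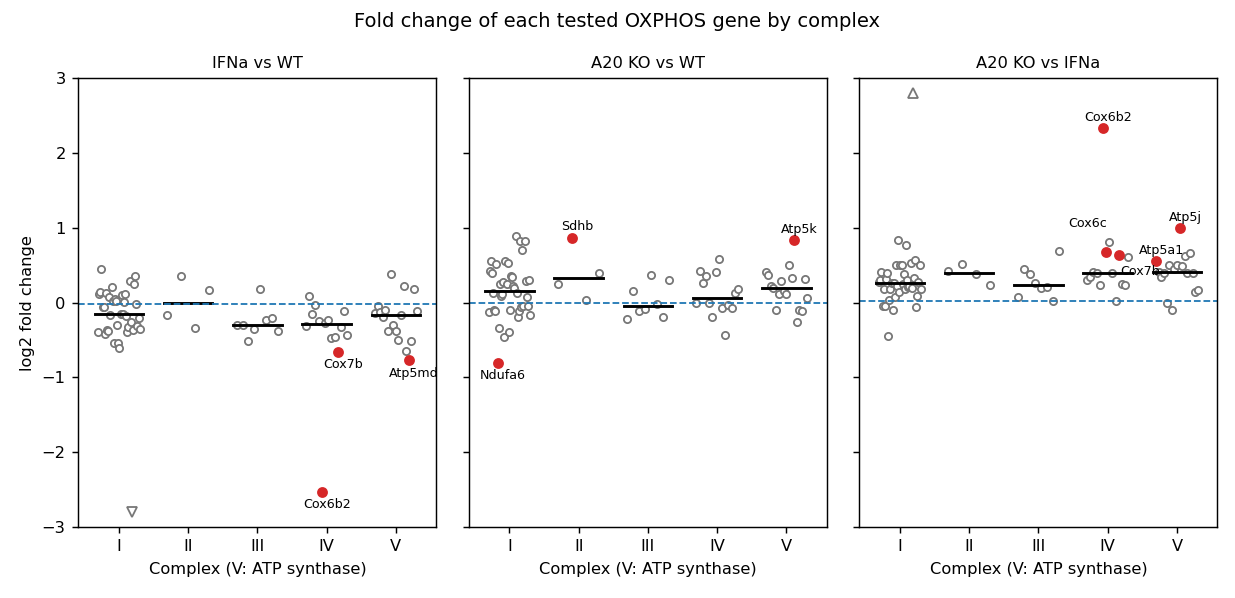
Log2 fold change of each tested member in the 3 comparisons, by complex; red points passed the edgeR threshold, open points did not, black bars are medians per complex, the dashed line is the median of all 13251 genes and triangles mark Ndufs5, which lies outside the axis. With IFNa the points of complexes III and IV sit mostly below the line, and in A20 KO against IFNa 74 of 81 points lie above 0.

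The second comparison asks how A20 KO cells differed from WT cells. By edgeR, 2 members rose, Sdhb and Atp5k, and 1 fell, Ndufa6. That is 2.47% called higher and 1.23% called lower, where 5.77% and 4.91% of all genes tested were called, so the share of members called was below that of all genes in both directions. At an unadjusted p under 0.05, 12 members were higher and 3 lower (share of all genes not computed). The median log2 fold change of the members was 0.15, against -0.01 for all genes, and 51 of 81 lay above 0. The groups did not overlap for 20 members that were higher (24.7%, against 15.4% of all genes) and 4 that were lower (4.94%, against 12.6%).

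Sdhb encodes the iron-sulfur subunit of succinate dehydrogenase, complex II, which passes electrons from the flavin of Sdha towards ubiquinone. It stood at 107, 99.4 and 114 CPM in WT, 152, 123 and 134 CPM under IFNa, and 181, 193 and 212 CPM in A20 KO. The 3 groups did not overlap, in the order WT, IFNa, A20 KO. Over WT the rise in A20 KO was 1.83-fold (log2 fold change 0.87, SE 0.16, edgeR adjusted p = 0.00249), while the difference between IFNa and WT did not pass (0.35, adjusted p = 0.359). The other 3 subunits of complex II did not pass. The catalytic flavoprotein gene Sdha averaged 114 ± 22.9 CPM in WT against 136 ± 35.6 in A20 KO (log2 fold change 0.25, adjusted p = 0.579). The membrane anchors had log2 fold changes of 0.04 (Sdhc, 67.6 ± 5.49 to 69.3 ± 16.9 CPM) and 0.40 (Sdhd, 41.8 ± 5.24 to 55.1 ± 10.9 CPM), with adjusted p of 0.96 and 0.363. Whether Sdhb moved further than the other 3 was not tested.

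Atp5k encodes subunit e of ATP synthase, a membrane subunit at the interface of the dimeric enzyme. It stood at 125, 116 and 142 CPM in WT and 213, 241 and 230.2 CPM in A20 KO, without overlap. The rise was 1.79-fold (log2 fold change 0.84, SE 0.17, edgeR adjusted p = 0.00623). The IFNa libraries, at 159, 117 and 169 CPM, overlapped WT. Ndufa6, an accessory subunit of complex I, moved the other way. It stood at 310.1, 300.4 and 319.9 CPM in WT, 222, 239 and 259 CPM under IFNa and 168, 195 and 167 CPM in A20 KO. The 3 groups were again separate, now with A20 KO lowest, and the fall from WT was 1.75-fold (log2 fold change -0.81, SE 0.14, edgeR adjusted p = 0.0019). The Sdhb, Atp5k and Ndufa6 calls passed in all 21 alternatives, including the fits that left out 1 library each. The complex I gene Ndufc1, with 53.0 ± 17.8 CPM in WT and 98.1 ± 15.8 in A20 KO, was just outside the threshold (log2 fold change 0.89, adjusted p = 0.0529). By complex, 4 of 4 tested members of complex II and 13 of 17 of ATP synthase were above 0 (medians 0.33 and 0.20), against 24 of 38 in complex I (0.16), 7 of 14 in complex IV (0.06) and 3 of 8 in complex III (-0.05).

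**Figure D3:**
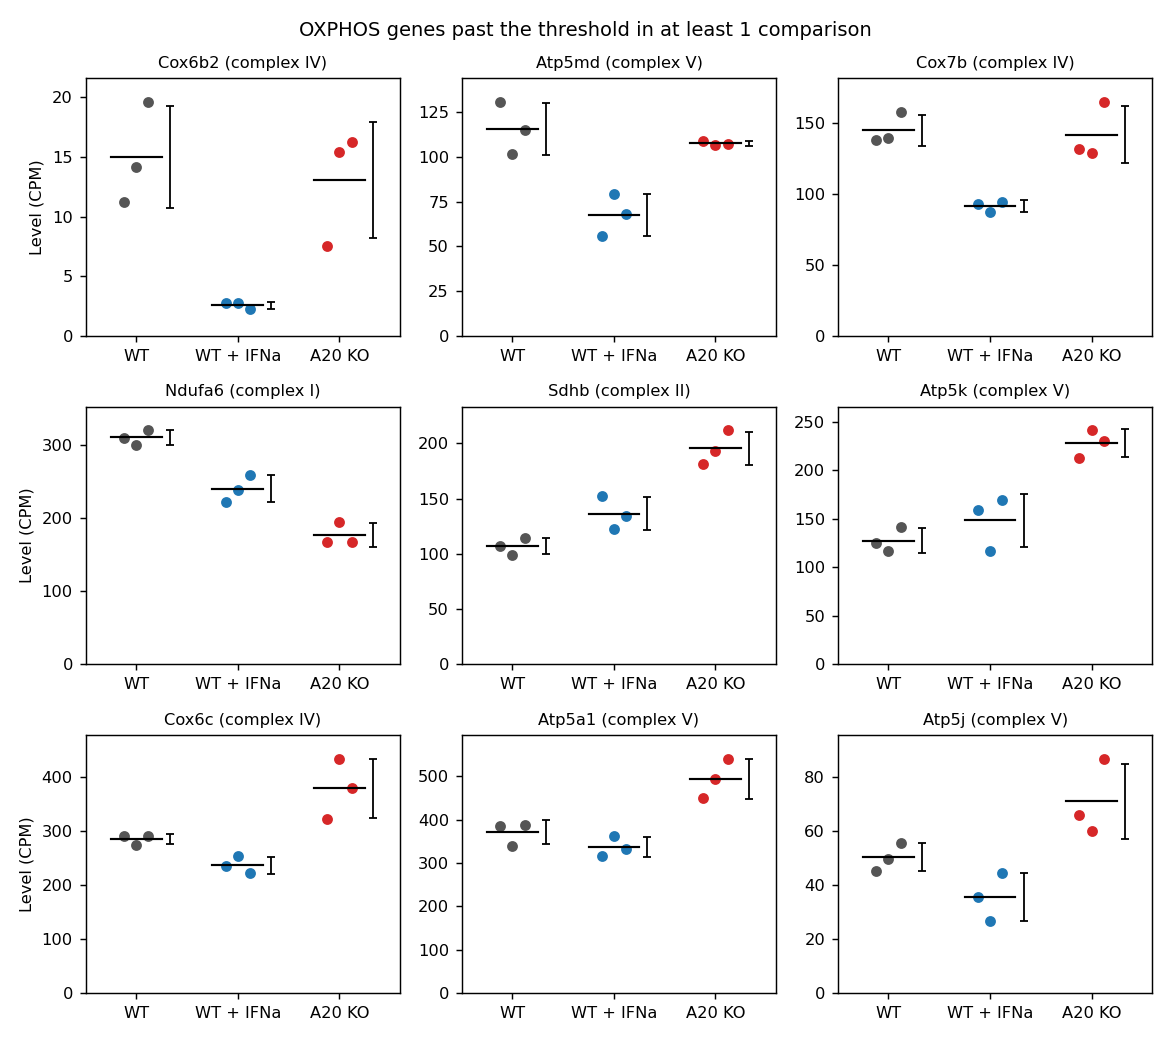
CPM of the 9 members that passed the threshold in at least 1 comparison, in every library (points, replicates 1 to 3 from left to right) with mean (line) and SD (bar) of 3 libraries, each panel from 0. Cox6b2, Atp5md and Cox7b are low in the IFNa libraries alone, Sdhb and Atp5k are highest in A20 KO, and Ndufa6 is lowest there.

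The promoters are shown of the 6 members called against WT, Sdhb and Atp5k, which rose in A20 KO, Ndufa6, which fell there, and Cox6b2, Atp5md and Cox7b, which fell with IFNa, and of Cox6b1, the widespread counterpart of Cox6b2. Each sequence runs from 250 bases before to 50 bases after the annotated start, on the gene's strand, from RefSeq on build GRCm38.p6; the files were made on GRCm39. Capitals mark any of the motifs CCGGAAG (ETS core) and GCATGCGC (NRF1 core) on either strand, which are known binding letters of GABP-type ETS factors and of nuclear respiratory factor 1, long described at genes of this pathway. The Sdhb window is chr4:140961021-140961320 (plus strand), Atp5k chr5:108434350-108434649 (minus), Ndufa6 chr15:82354242-82354541 (minus), Cox6b2 chr7:4753045-4753344 (minus), Atp5md chr19:47090598-47090897 (minus), Cox7b chrX:106015450-106015749 (plus) and Cox6b1 chr7:30626065-30626364 (minus).
Sdhb: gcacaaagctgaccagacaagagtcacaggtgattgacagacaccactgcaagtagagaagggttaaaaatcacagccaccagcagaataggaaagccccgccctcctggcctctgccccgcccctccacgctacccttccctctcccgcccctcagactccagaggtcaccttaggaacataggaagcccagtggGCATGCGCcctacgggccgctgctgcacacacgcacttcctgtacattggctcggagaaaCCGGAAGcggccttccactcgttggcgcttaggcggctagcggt
Atp5k: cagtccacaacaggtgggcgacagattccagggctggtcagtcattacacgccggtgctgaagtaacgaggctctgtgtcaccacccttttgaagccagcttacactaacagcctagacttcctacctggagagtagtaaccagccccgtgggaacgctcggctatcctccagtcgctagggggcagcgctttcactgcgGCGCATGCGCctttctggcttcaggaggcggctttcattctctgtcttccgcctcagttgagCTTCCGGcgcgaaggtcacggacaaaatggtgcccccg
Ndufa6: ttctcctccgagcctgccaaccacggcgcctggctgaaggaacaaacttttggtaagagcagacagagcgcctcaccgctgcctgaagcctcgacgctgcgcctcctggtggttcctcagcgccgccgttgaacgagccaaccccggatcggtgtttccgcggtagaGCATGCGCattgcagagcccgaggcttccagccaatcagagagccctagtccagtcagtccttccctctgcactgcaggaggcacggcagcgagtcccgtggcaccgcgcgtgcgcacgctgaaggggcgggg
Cox6b2: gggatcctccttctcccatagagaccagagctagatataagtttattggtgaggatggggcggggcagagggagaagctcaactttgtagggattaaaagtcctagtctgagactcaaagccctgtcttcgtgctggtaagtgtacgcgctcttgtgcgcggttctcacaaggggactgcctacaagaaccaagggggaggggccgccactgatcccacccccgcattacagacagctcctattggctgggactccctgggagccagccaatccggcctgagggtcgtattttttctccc
Atp5md: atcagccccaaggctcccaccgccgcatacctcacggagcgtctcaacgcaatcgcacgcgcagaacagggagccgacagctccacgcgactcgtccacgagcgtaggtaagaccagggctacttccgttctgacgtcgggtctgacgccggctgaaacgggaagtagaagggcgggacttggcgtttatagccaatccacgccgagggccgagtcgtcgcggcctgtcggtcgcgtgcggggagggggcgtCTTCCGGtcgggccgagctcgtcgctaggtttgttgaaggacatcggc
Cox7b: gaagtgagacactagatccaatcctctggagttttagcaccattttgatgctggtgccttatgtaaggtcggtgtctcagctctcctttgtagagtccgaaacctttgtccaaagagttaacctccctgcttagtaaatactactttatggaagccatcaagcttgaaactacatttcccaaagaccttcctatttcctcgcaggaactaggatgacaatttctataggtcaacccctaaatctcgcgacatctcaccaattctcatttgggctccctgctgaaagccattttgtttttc
Cox6b1: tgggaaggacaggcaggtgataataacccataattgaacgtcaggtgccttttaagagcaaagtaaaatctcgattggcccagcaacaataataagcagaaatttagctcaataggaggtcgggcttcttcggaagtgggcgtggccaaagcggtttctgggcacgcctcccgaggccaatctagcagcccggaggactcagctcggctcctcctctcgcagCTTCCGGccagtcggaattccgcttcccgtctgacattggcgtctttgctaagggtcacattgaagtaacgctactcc
Sdhb held an NRF1 core at -54 and an ETS core at 6 bases from the start. Atp5k held overlapping NRF1 cores at -50 and -48 and an ETS core at 12. Ndufa6 held an NRF1 core at -83 and no ETS core. Atp5md held an ETS core at 2 and Cox6b1 one at -28, both with no NRF1 core, and Cox6b2 and Cox7b held neither. Of the members called in A20 KO over WT, Sdhb and Atp5k, which rose, held the ETS core, and Ndufa6, which fell, did not. Of those that fell with IFNa, Atp5md held it, and Cox6b2 and Cox7b did not. Whether the core went with the direction of change was not tested. These letters describe the windows and say nothing about binding.

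Over the members, promoter windows were found for 69 of 83, in 74 windows. The ETS core was in 17 windows (23.0%), against 8.86% of all 32851 promoter windows. The NRF1 core was in 10 (13.5%, against 2.71%). AAGATGGCG, a YY1 core, was in 7 (9.46%, against 1.4%), and the CRE letters TGACGTCA in 4 (5.41%, against 1.79%). TCAAGGTCA, an element of estrogen-related receptors, was in 2 (2.7%, against 0.423%). The E-box CACGTG, with 7 windows, had nearly the share of all promoters (9.46%, against 7.15%). The interferon response pattern, GAAA followed by any 2 bases and GAAA, was in 2 windows (2.7%, against 3.44%). All were searched on both strands and described without a test.

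The third comparison sets A20 KO directly against IFNa-treated WT cells. By edgeR, 5 members were higher in A20 KO and none lower: Cox6b2, Cox6c, Atp5a1, Atp5j and Cox7b. That is 6.17% called higher, where 2.05% of all genes tested were, and 0% called lower, where 3.41% were. At an unadjusted p under 0.05, 27 members were higher and 1 lower (share of all genes not computed). DESeq2 called 13 higher and 1 lower, and limma voom 6 and 0. The members leaned upwards as a group: 74 of 81 had a log2 fold change above 0, with a median of 0.32 against 0.02 for all genes. The groups did not overlap for 35 members that were higher (43.2%, against 12.3% of all genes) and 1 that was lower (1.23%, against 12.3%), which was Ndufa6. All tested members of complexes II, III and IV had a log2 fold change above 0 here (4, 8 and 14 genes, medians 0.40, 0.24 and 0.39), as did 15 of 17 in ATP synthase (0.41) and 33 of 38 in complex I (0.26).

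Of the 5, Cox6b2 and Cox7b were those that had fallen with IFNa. Cox6b2, at 7.49, 15.4 and 16.2 CPM in A20 KO, was 5.03-fold higher than with IFNa (log2 fold change 2.33, SE 0.50, edgeR adjusted p = 0.014), and its A20 KO and WT libraries overlapped. Cox7b, at 132, 129 and 165 CPM, was 1.55-fold higher than with IFNa (0.63, SE 0.16, edgeR adjusted p = 0.0368). Cox6c, another small subunit of complex IV, stood at 290.2, 274 and 291 CPM in WT, 234, 252 and 222 CPM under IFNa and 322, 433 and 379 CPM in A20 KO. It lay highest in A20 KO and lowest with IFNa without overlap, and the difference between those groups was 1.6-fold (0.68, SE 0.14, edgeR adjusted p = 0.014).

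The other 2 encode parts of ATP synthase. Atp5a1, the alpha subunit of the catalytic head, stood at 385, 339.6 and 388 CPM in WT, 316, 363 and 332 CPM under IFNa and 449, 494 and 541 CPM in A20 KO. WT and IFNa overlapped, A20 KO lay above both, and the difference from IFNa was 1.47-fold (log2 fold change 0.55, SE 0.13, edgeR adjusted p = 0.0289). Atp5j, a subunit of the peripheral stalk (coupling factor), stood at 45.3, 49.8 and 55.8 CPM in WT, 35.6, 26.7 and 44.6 CPM under IFNa and 66.1, 60 and 86.8 CPM in A20 KO. The 3 groups did not overlap, and A20 KO was 1.99-fold above IFNa (log2 fold change 1.00, SE 0.24, edgeR adjusted p = 0.03). Atp5md, which had fallen with IFNa, was just outside the threshold here (0.67, adjusted p = 0.051), as was Atp5k (0.62, adjusted p = 0.0541).

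These 5 calls depended on single libraries. The count of members called higher was 0 without A20 KO replicate 2 or 3, 1 without IFNa replicate 1 or 2, 3 without IFNa replicate 3 and 8 without WT replicate 2. Cox6c passed in 19 of 21 alternatives and was lost without A20 KO replicate 2 or 3 (log2 fold changes 0.57 and 0.68). Without each of these libraries in turn, or without any 1 of the 3 IFNa libraries, the Cox6b2 call was lost as well (2.14 to 2.39), as were those of Atp5a1 (0.48 to 0.61) and Cox7b (0.51 to 0.69). The Cox7b call was also lost without WT replicate 3, A20 KO replicate 1 or a filter on low counts, and the Cox6b2 call with limma voom (2.27). Atp5j was lost without IFNa replicate 1 or 2 or any 1 of the A20 KO libraries (0.82 to 1.1). Adjusted p over all alternatives ran from 4.01e-05 to 0.106 for Cox6c, 0.000543 to 0.0986 for Cox6b2, 0.000263 to 0.157 for Atp5a1, 0.00485 to 0.158 for Atp5j and 0.00416 to 0.196 for Cox7b.

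Isoforms and paralogues of complex IV subunits were read beside the members. Cox6a2, the isoform of subunit 6a known from heart and muscle and not a member by the rule, held 9.32, 13.8 and 7.72 CPM in WT, 10.3, 9.73 and 10.4 CPM under IFNa and 46.1, 43.6 and 46.3 CPM in A20 KO. All A20 KO libraries stood above all others, and the rise over WT was 4.42-fold (log2 fold change 2.14, SE 0.31, edgeR adjusted p = 6e-04). The widespread isoform Cox6a1 averaged 243 ± 30.5 CPM in WT and 311 ± 15.3 in A20 KO and did not pass (0.36, adjusted p = 0.192). The share of Cox6a2 in the counts of both was 3.35, 6.18 and 3.00% in WT, 3.67, 3.95 and 4.93% under IFNa and 13.6, 12 and 12.6% in A20 KO. Cox6a2 passed in all 21 alternatives, in A20 KO against WT and against IFNa (log2 fold change 2.16, adjusted p = 0.00116).

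AA467197, the mouse gene of a small protein related to Ndufa4 (C15orf48 or NMES1 in humans), held 8, 8 and 1 counts in WT, 5, 12 and 16 under IFNa and 32, 108 and 92 in A20 KO. It rose 13.2-fold in A20 KO over WT (log2 fold change 3.73, SE 1.09, edgeR adjusted p = 0.0451). The call passed in 10 of 20 alternatives (adjusted p 0.00226 to 0.2) and was lost without any 1 of the WT and A20 KO libraries, or without IFNa replicate 2 or 3 (log2 fold changes 3.22 to 4.25). It was also lost with the replicate block (3.58) and with limma voom with sample quality weights (4.56). Ndufa4 itself, now counted with complex IV, averaged 58.5 ± 20.1 CPM in WT, 43.5 ± 15 under IFNa and 66.2 ± 5.64 in A20 KO and passed in no comparison. AA467197 took 2.14, 1.43 and 0.154% of the counts of both genes in WT and 5.64, 17 and 12.4% in A20 KO. Of the other isoform sets, Cox7a1 took 0.395 to 1.78% of the counts of Cox7a1 and Cox7a2 and overlapped between groups. Cox7a2l, which takes part in joining complexes III and IV, averaged 242 ± 65.5, 176 ± 18.0 and 179 ± 16.7 CPM in WT, IFNa and A20 KO without passing. Cox8a averaged 249.8 ± 18.3, 232 ± 64.8 and 273 ± 55.1 CPM. Atp5g3 took 80.8 to 92.4% of the counts of the subunit c genes and Atp5g1 6.94 to 18.5%, also with overlap. The inhibitor of ATP synthase, Atpif1, falls outside the rule and averaged 308 ± 23.2, 236 ± 26.2 and 272 ± 15.2 CPM without passing (IFNa against WT -0.38, adjusted p = 0.233).

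**Figure D4:**
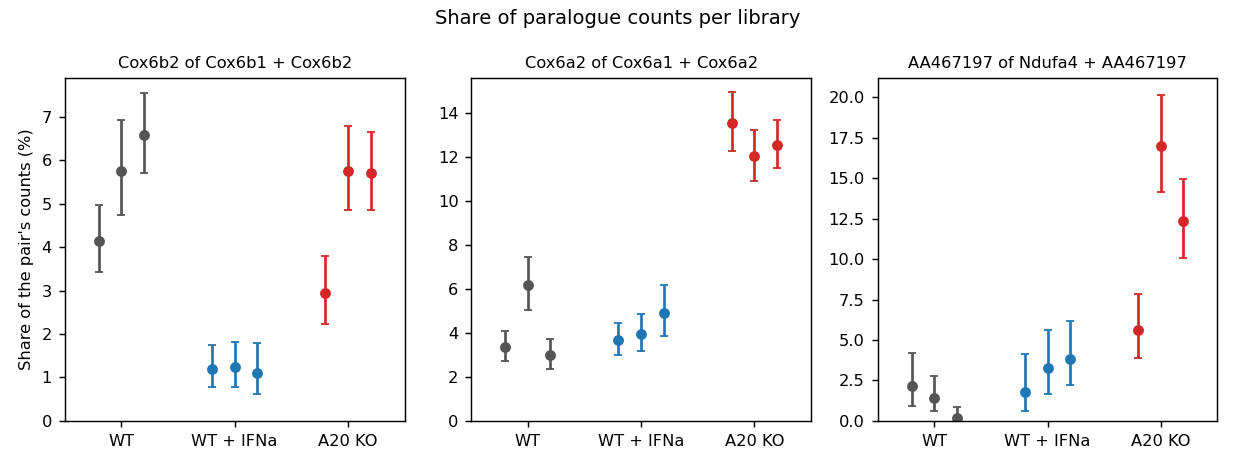
Share of counts taken by Cox6b2, Cox6a2 and AA467197 among the counts of each paralogue pair, in percent per library, with 95% exact binomial intervals (bars, counting error only) and replicates 1 to 3 from left to right. Cox6b2 is low in the 3 IFNa libraries, Cox6a2 is high in the 3 A20 KO libraries and the A20 KO points of AA467197 lie above all others.

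The partner subunits encoded in mitochondrial DNA were read from the same libraries. Of 13 such genes, 7 were tested. COX2, COX3, ND3 and ND4L were listed at 0 in every library, and ATP6 and ATP8 at 0 in most, so nothing is said of them. Why they held so few counts is unknown here, as is whether reads of the 7 tested genes were lost too. The 13 genes summed to 16618, 16619 and 18093 CPM in WT, 12476, 10455 and 12956 CPM under IFNa, and 20292, 17364 and 18472 CPM in A20 KO. All IFNa libraries were below all others. By edgeR, 3 of 7 fell with IFNa, where 0.702% of all genes did, and none rose, with a median log2 fold change of -0.55. ND1, a core subunit of complex I, stood at 3552, 3420 and 3629 CPM in WT and 2132, 2232 and 2082 CPM with IFNa, without overlap (log2 fold change -0.72, SE 0.10, edgeR adjusted p = 0.000694). CYTB, the cytochrome b of complex III, stood at 3332, 3225 and 3858 CPM and 2081, 2005 and 2364 CPM (-0.69, SE 0.11, edgeR adjusted p = 0.00304). ND5 averaged 636 ± 29.7 and 434 ± 42.9 CPM (-0.55, edgeR adjusted p = 0.0288). COX1 did not pass (879 ± 31.2 to 640.3 ± 8.02 CPM, adjusted p = 0.0601), nor did ND2, ND4 and ND6.

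In A20 KO against WT, none of the 7 passed in edgeR, and 1 was lower at an unadjusted p under 0.05. Against IFNa, 4 were higher in A20 KO, where 2.05% of all genes were: CYTB (log2 fold change 0.88, edgeR adjusted p = 0.000392), ND1 (0.57, adjusted p = 0.0032), ND4 (0.86, adjusted p = 0.00807) and ND5 (0.50, adjusted p = 0.0333). The ND1 and CYTB calls passed in all 21 alternatives in both comparisons. The ND4 call was lost without IFNa replicate 2 (0.74), and the ND5 call against IFNa passed in 13 of 21 and was lost without 6 of the 9 libraries in turn: WT replicate 3, IFNa replicate 1 or 2, and each of the A20 KO libraries (0.44 to 0.53). The fall of ND5 with IFNa was lost without any 1 WT library, IFNa replicate 1 or 2 or A20 KO replicate 2 or 3 (-0.49 to -0.58). The mitochondrial ribosomal RNAs did not follow these genes: they summed to 19763 ± 2113, 18088 ± 3004 and 16752 ± 2568 CPM in WT, IFNa and A20 KO, with overlap.

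**Figure D5:**
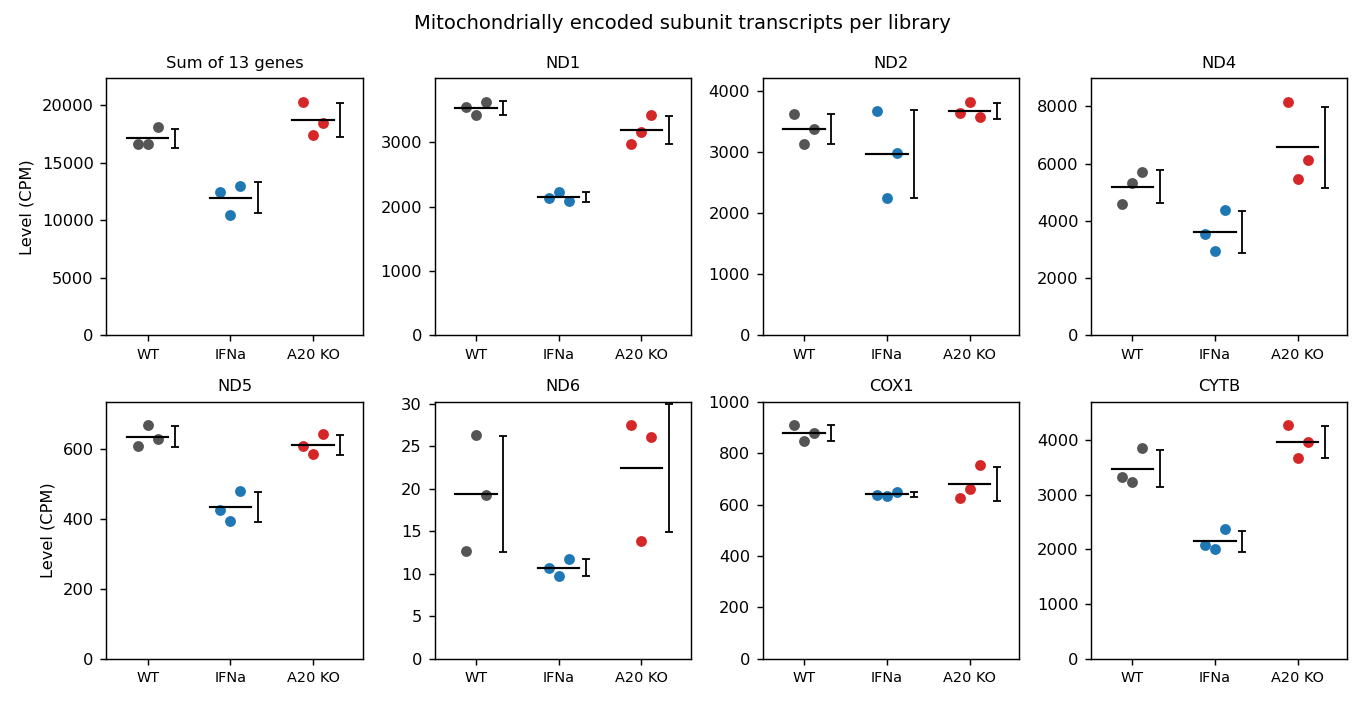
CPM of the mitochondrially encoded subunit genes, as a sum of 13 and for the 7 tested, in every library (points, replicates 1 to 3 from left to right) with mean (line) and SD (bar), each panel from 0. The IFNa libraries lie below all WT and A20 KO libraries for the sum, ND1, ND4, ND5, ND6 and CYTB, and overlap A20 KO for COX1.

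Other genes of the pathway were read from fixed lists. Of 14 tested genes of the TCA cycle, which feeds electrons to complexes I and II, 2 rose in A20 KO over WT, where 5.77% of all genes did, and none fell. The median log2 fold change was 0.29. Mdh2, mitochondrial malate dehydrogenase, rose from 104 ± 27.1 to 245 ± 37.5 CPM (log2 fold change 1.23, SE 0.21, edgeR adjusted p = 0.00194) in all 21 alternatives. Idh2, the NADP-dependent isocitrate dehydrogenase, rose from 52.3 ± 10.9 to 90.5 ± 3.77 CPM (0.79, edgeR adjusted p = 0.0261). The Idh2 call was lost without WT replicate 2 or 3 or any 1 A20 KO library (0.70 to 0.82). Both were also higher than with IFNa, by 0.82 for Mdh2 (adjusted p = 0.0368) and 1.22 for Idh2 (adjusted p = 0.00337). The Mdh2 difference was lost without IFNa replicate 2 or 3 or A20 KO replicate 2 or 3 (0.71 to 0.81). With IFNa against WT no TCA gene passed in edgeR, 1 was lower at an unadjusted p under 0.05, and 11 of 14 lay below 0.

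Acod1 and Sucnr1 are tied to complex II by its metabolites. Acod1 makes itaconate, a known inhibitor of succinate dehydrogenase. It held no count in WT, 6, 25 and 0 counts under IFNa and 341, 344 and 451 in A20 KO, at least 402-fold higher there than in WT against a floor of 3 counts over the group (edgeR adjusted p = 0.000324, passing in all 21 alternatives). Sucnr1, the receptor for succinate, held no count in WT, 7 in all under IFNa and 158 in all in A20 KO, at least 55.9-fold higher than WT (edgeR adjusted p = 0.0333). The Sucnr1 call was lost without any 1 of the WT or A20 KO libraries. The monocyte and macrophage markers given above rose in the same libraries, with 7 of 8 higher and 1 lower in A20 KO, and their part in these values was not tested.

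Of 76 tested mitochondrial ribosomal proteins, which translate the mitochondrially encoded subunits, 4 rose in A20 KO over WT (Mrpl16, Mrpl17, Mrpl18 and Mrpl51), a share near the 5.77% of all genes called higher. None fell, 61 lay above 0, and the median log2 fold change was 0.27. Mrpl16 stood at 21.7, 25.7 and 21.5 CPM in WT, 46.4, 60 and 42.2 CPM under IFNa and 41.1, 56.2 and 50.8 CPM in A20 KO. WT was below both other groups, and Mrpl16 rose in both (1.11 with IFNa, edgeR adjusted p = 0.0217; 1.1 in A20 KO, adjusted p = 0.00907). The rise in A20 KO was lost without A20 KO replicate 2 (1.00), and that with IFNa without replicate 1 or 3 of WT or replicate 1 or 2 of IFNa (0.95 to 1.14). The calls of Mrpl17, Mrpl18 and Mrpl51 had log2 fold changes of 1.02, 0.73 and 1.03 and adjusted p of 0.0311, 0.0481 and 0.0344, and each was lost without some libraries: for Mrpl17 WT replicate 1 or 3 and A20 KO replicate 2 or 3, for Mrpl18 any but IFNa replicate 1, and for Mrpl51 any but replicate 1 of WT or IFNa (0.57 to 1.11 over the 3 genes). Mrps6 was higher in A20 KO than with IFNa (1.2, adjusted p = 0.0357), a call lost without any 1 library of these groups (1.06 to 1.28).

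Assembly factors, which build the complexes, showed 1 call in A20 KO against WT among 55 tested, a smaller share than the 5.77% of all genes called higher and 4.91% called lower. Sco1, a copper chaperone for complex IV, rose from 5.49 ± 1.40 CPM in WT to 14.9 ± 1.32 in A20 KO (1.44, edgeR adjusted p = 0.0466), a call that was lost without any 1 of the 9 libraries (1.24 to 1.56). The median of the list was 0.13 in A20 KO and -0.01 with IFNa. Among 8 other genes that bring electrons to ubiquinone or serve it, Coq10a, a ubiquinone-binding protein, fell from 18.0 ± 4.06 to 5.13 ± 2.43 CPM in A20 KO (-1.81, edgeR adjusted p = 0.0266). This call was lost without replicate 2 or 3 of WT or replicate 1 or 3 of A20 KO (-1.50 to -1.83). Of 15 tested regulators of mitochondrial biogenesis, Myc fell in A20 KO (26.9 ± 8.53 to 10.6 ± 3.94 CPM, -1.34, edgeR adjusted p = 0.0368), lost without WT replicate 1 or 3, any 1 IFNa library or A20 KO replicate 2 or 3 (-1.1 to -1.33). The regulators named for the motifs above did not pass: Nrf1 averaged 35.8 ± 11.6, 45.4 ± 10.1 and 46.9 ± 12.9 CPM in WT, IFNa and A20 KO, and Gabpa 18.1 ± 8.91, 24.3 ± 8.18 and 22.0 ± 6.68 CPM. Ppargc1a held 0 to 27 counts per library and was not tested. The 7 adenine nucleotide and phosphate carriers, which bring substrates to ATP synthase, and the 11 tested genes of pyruvate entry had no call in any comparison by edgeR. At an unadjusted p under 0.05 the carriers had 1 lower under IFNa and 4 higher in A20 KO than under IFNa, and the pyruvate genes 1 lower in each comparison with WT and 1 higher in A20 KO than with IFNa. Of the structural genes outside the rule, Cyc1, Cycs and Ndufab1 did not pass.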

How the data were processed

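RNA of 9 libraries was measured by 3' tag sequencing, with 3 libraries in each group. The authors deposited raw counts per gene symbol for each library. The tools named, per the submitters' processing notes, are STAR 2.7.10b, featureCounts 2.0.6, fastp 0.23.1 and Bowtie2, with build GRCm39. What each tool did, the gene annotation, strandedness and how multiply mapped reads were counted: not given in the sources used here. From these counts, edgeR 4.0.16 (R 4.3.3) fitted 1 quasi-likelihood model over all 9 libraries, with TMM factors and genes kept by filterByExpr at a minimum count of 10 and a minimum total of 15. This left 13251 of 40879 genes, holding 99.83% of counts, and 6 residual degrees of freedom (common biological coefficient of variation 0.554). P-values of the 3 contrasts got Benjamini-Hochberg adjustment over every gene tested, with a threshold of 0.05. Alternatives were other scalings and filters, DESeq2 1.42.0, limma 3.58.1 voom with and without sample quality weights, fits of 2 groups, a replicate block, a stromal covariate and fits without each library. The scripts were tested on simulated data. Library totals of 6900598 to 10552756 set the counting precision. Replicate pairs differed by more than counting noise (chi-square per degree of freedom 14.4 to 64.2), which does not show whether they came from separate mice.

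The members and gene lists were chosen with earlier results of these data known. Genes were named by rule: up to 8 members past the threshold per comparison and direction, the 2 members of highest CPM in WT per complex, the isoform sets of complex IV and subunit c, the 4 subunits of complex II and Atpif1, and up to 4 genes past the threshold per list. Core subunits, members just outside the threshold, Ndufs5, Atp5l, the unpassed regulators, members without overlap and Ndufs6b were added after their values were seen. Promoter sequences are from RefSeq on GRCm38.p6 and were matched by symbol.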

Additional observations from a re-analysis of the deposited data

How the results depend on the processing

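Of 107 gene results named by rule, 37 passed the threshold, 13 of them under every one of the alternatives run for them, and none of the 37 changed sign. Of the 70 that did not pass, 9 passed in at least 1 alternative and 19 changed sign in at least 1. The median log2 fold change of the members kept its sign in all alternatives. Scaling by library size alone moved the median of all genes to -0.15 with IFNa and 0.12 in A20 KO against IFNa, and the member medians less these were -0.17 and 0.31, against -0.18 and 0.30 with TMM. Counts of members called moved more. They are given without the number of all genes called under each alternative. They therefore do not show whether members moved apart from other genes. Lower with IFNa (3 members) became 6 by library size alone, 5 with the stromal covariate, and 1 in the fit of only the 2 groups; leaving out 1 library gave 0 to 3. Higher in A20 KO than WT (2) became 4 with upper-quartile scaling, a minimum count of 50 or limma voom, and 7 with DESeq2, quality weights or the stromal covariate; leaving out 1 library gave 2 to 3. Higher in A20 KO than IFNa (5) became 11 by library size, 10 by upper quartile, 8 without a filter, 9 at a minimum count of 50, 13 with DESeq2 or quality weights and 12 with the stromal covariate; leaving out 1 library gave 0 to 8. Lower in that comparison (0) became 1, Ndufa6, with DESeq2 and with the stromal covariate. Among genes of the other lists, Sco1 also lost its call without a filter, with limma voom and in the fit of only the 2 groups (1.43, 1.43 and 1.40), and in that fit so did Mrpl17, Mrpl18, Mrpl51, Coq10a and Myc in A20 KO against WT, and Mrpl16 and ND5 with IFNa. The cause of these moves was not tested. In the fits that left a library out, having fewer libraries and lacking that library cannot be told apart.

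The replicate numbers were not taken as a pairing: same-numbered libraries had correlations of their deviations from -0.371 to 0.237 over 9 pairs, 1 above 0.1. No library correlated best with its own number in both other groups. With the replicate block, 1 member was lower with IFNa, 2 higher and 1 lower in A20 KO against WT, and 3 higher and 0 lower in A20 KO against IFNa. Among the named genes, this block lost the calls of Atp5md, Cox7b and ND5 with IFNa. In A20 KO against WT it lost those of AA467197, Coq10a, Idh2, Mrpl18, Mrpl51, Myc, Sco1 and Sucnr1. In A20 KO against IFNa it lost those of Atp5a1, Cox7b, Mdh2, Mrps6 and ND5. With 3 libraries a group, a member that missed the threshold is not shown to be unchanged.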

Other observations

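Ndufs6b, a near-identical copy of the complex I subunit gene Ndufs6, took 3.45, 5.24 and 4.71% of the counts of both genes in WT, 2.64, 7.09 and 10.1% under IFNa and 10.1, 7.56 and 6.21% in A20 KO. The A20 KO libraries lay above all WT libraries, and the IFNa libraries overlapped both. The split is uncertain, because it is unknown here how reads shared by the copies were counted.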
